A study of Mus musculus with 80 samples.

Results

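Brca1, Brca2, Rad54l, Blm, Fanci, Fancd2, Exo1 and Msh6 act in homologous recombination, crosslink repair and mismatch repair, and their transcript levels were followed here in mammary tumours driven by Myc. The 8 genes were chosen by name, and all of their probe sets in the deposited table were taken. Of these genes, 7 had at least 1 probe set, with 14 probe sets among the 22626 non-control probe sets and 12393 named genes of the array. Fancd2 was not analysed here. A level filter, an intensity above 74.6 on at least 10 arrays, was passed by 12 of the 14 probe sets, and each of the 7 genes kept at least 1. The probe sets that failed were 1427698_at for Brca1, which exceeded that level on 1 array, and 1425941_a_at for Fanci, which exceeded it on none.

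The study asks how the loss of individual E2F transcription factors alters Myc-driven mammary tumours. All mice were of the FVB strain and carried the MMTV-Myc transgene, in which the mouse mammary tumour virus promoter drives the Myc oncogene in mammary epithelium. Controls had wild-type E2F alleles, 2 groups lacked E2F1 or E2F2 altogether (E2F1 null, E2F2 null), and the last kept 1 normal E2F3 allele (E2F3 heterozygous). Each group held 20 tumours, frozen once the primary tumour had reached the study's end point, and RNA of the whole tumour was hybridised to 1 single-colour Affymetrix array per tumour. Each tumour's label also carries a number before a hyphen, and 46 of the 80 arrays shared it with another array of their genotype. The labels do not say what it stands for, and such tumours may come from 1 animal, so the 53 numbers (16 each among wild-type and E2F1 null, 11 among E2F2 null and 10 among E2F3 heterozygous tumours) entered the models as a random block. The p-values therefore measure the spread between these tumours and numbers.

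The deposited values are intensities on a linear scale that the authors scaled to 1 common mean: with 2% of values trimmed at each end, the arrays' means fell within 500.17 to 500.22. A change in the total mRNA of a cell cannot be seen in such values. Array number limits the precision. In the comparisons with wild type, the SE of a log2 fold change had a median over all probe sets tested of 0.12 to 0.13. For the 12 probe sets it ran from 0.10 (Msh6) to 0.18 (Rad54l 1423124_x_at). Of 16 luminal epithelial markers 13 were measured past the filter, and their summed intensity lay between 23088 and 78843 in the 80 tumours. E2F1 null replicate 6 had the highest fibroblast and collagen score of all tumours, 3.06, and every comparison was repeated without it. Of the 2 E2f1 probe sets, 1431875_a_at was lower in E2F1 null than in wild-type tumours by a log2 difference of -0.59 (SE 0.14, limma adjusted p = 0.0507) and 1417878_at by -0.18 (SE 0.10, adjusted p = 1.00), neither past 0.05. The labels do not say whether these probe sets lie inside the deleted part of the gene, so neither serves as a check of the genotype.

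Homologous recombination mends double-strand breaks and collapsed replication forks by copying the sister chromatid. BRCA1 promotes the resection of broken ends, BRCA2 prepares the resected ends for strand exchange, RAD54L is a motor protein that remodels DNA during that exchange, and the BLM helicase dissolves joined intermediates. FANCI pairs with FANCD2 in the clamp that the Fanconi anaemia pathway places on crosslinked DNA, MSH6 takes part in recognising base mismatches, and EXO1 is the nuclease that removes the mismatched strand and also resects breaks. Genes of this kind are mainly transcribed in cells that replicate their DNA, and several are known targets of E2F factors.

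Promoter windows of 4 of the 6 genes with a window are shown, because the factors removed in this study bind DNA directly. The choice includes the 2 genes with an E2F word, as defined below, and leaves out Rad54l and Fanci. Whether such words relate to the levels across tumours was not tested. The windows come from RefSeq sequence of the mouse assembly GRCm38.p6, each from 250 bases before to 50 bases after an annotated transcript start, read 5′ to 3′ on the strand of the gene. Capitals mark E2F words (TTTCCCGC, TTTCGCGC, TTTGCCGC or TTTGGCGC, or their reverse complements) and CCAAT boxes (CCAAT, or ATTGG on the other strand). Brca2 lies at chr5:150522371-150522670 on the plus strand, Msh6 at chr17:87974800-87975099 on the plus strand, Brca1 at chr11:101551906-101552205 on the minus strand and Blm at chr7:80534949-80535248 on the minus strand.
Brca2: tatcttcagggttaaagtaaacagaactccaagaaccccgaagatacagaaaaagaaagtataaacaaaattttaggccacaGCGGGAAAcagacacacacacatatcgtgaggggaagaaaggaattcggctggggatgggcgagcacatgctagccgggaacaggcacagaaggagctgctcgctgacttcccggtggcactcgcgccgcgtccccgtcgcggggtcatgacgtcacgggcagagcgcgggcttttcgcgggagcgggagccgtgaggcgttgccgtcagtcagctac
Msh6: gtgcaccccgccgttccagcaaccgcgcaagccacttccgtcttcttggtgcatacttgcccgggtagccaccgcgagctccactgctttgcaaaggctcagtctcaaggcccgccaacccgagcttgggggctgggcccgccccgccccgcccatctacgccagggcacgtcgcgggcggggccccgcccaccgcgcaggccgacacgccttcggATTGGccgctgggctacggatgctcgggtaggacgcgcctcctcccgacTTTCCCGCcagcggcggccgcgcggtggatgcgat
Brca1: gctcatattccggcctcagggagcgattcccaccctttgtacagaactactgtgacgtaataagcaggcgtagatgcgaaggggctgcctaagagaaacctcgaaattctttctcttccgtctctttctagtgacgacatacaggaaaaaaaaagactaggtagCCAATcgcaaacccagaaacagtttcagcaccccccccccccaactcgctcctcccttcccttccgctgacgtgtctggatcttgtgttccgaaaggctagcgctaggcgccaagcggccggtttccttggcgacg
Blm: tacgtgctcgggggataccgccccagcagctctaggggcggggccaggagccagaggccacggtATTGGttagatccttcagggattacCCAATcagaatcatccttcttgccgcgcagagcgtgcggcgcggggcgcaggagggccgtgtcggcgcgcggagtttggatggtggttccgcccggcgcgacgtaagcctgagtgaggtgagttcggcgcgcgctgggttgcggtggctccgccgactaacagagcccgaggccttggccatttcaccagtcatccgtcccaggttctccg

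An E2F word was present in 2 of the 6 genes with a window, as GCGGGAAA at base -168 from the start in Brca2 and as TTTCCCGC at base 15 in Msh6. Of the 27025 genes in the RefSeq table, 2.605% held such a word in at least 1 window, and of all windows 2.265%. A CCAAT box was present in 4 of the 6, at base -34 in Msh6, -86 in Brca1, -50 in Rad54l, and -186 and -161 in Blm, against 41.06% of all genes. The Fanci window, which is not shown, held neither an E2F word nor a CCAAT box. Neither the cell cycle element CHR (TTTGAA or TTTAAA, or TTCAAA on the other strand) nor the Myc-type E-box CACGTG was found in any of the 6 windows, while 30.57% and 8.093% of all genes held them. No window was matched for Exo1 and Fancd2. A match is a description of letters and not a bound site, and no matches overlapped.

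No repair gene differed between genotypes past the threshold, an adjusted p of 0.05 over the 15255 probe sets tested. In E2F2 null tumours all 12 probe sets lay above wild type, as did 49.2% of all probe sets. Their median log2 difference was 0.23, against a median of 0.00 over all probe sets. The 12 belong to 7 genes that varied together across tumours, so they are not separate observations. The ranges of the 4 genotypes overlapped for every gene. Within a genotype the highest tumour exceeded the lowest by 1.72-fold (Brca2 in wild type) to 3.62-fold (Exo1 in E2F1 null). Over all 80 tumours, the highest value exceeded the lowest by 3.13-fold for Msh6 and by up to 4.11-fold for Exo1, computed as intensity + 5. All differences below are on the log2(intensity + 5) scale, which understates changes of dim probe sets, and values describe the brightest probe set of a gene unless another is named.

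**Figure D1:**
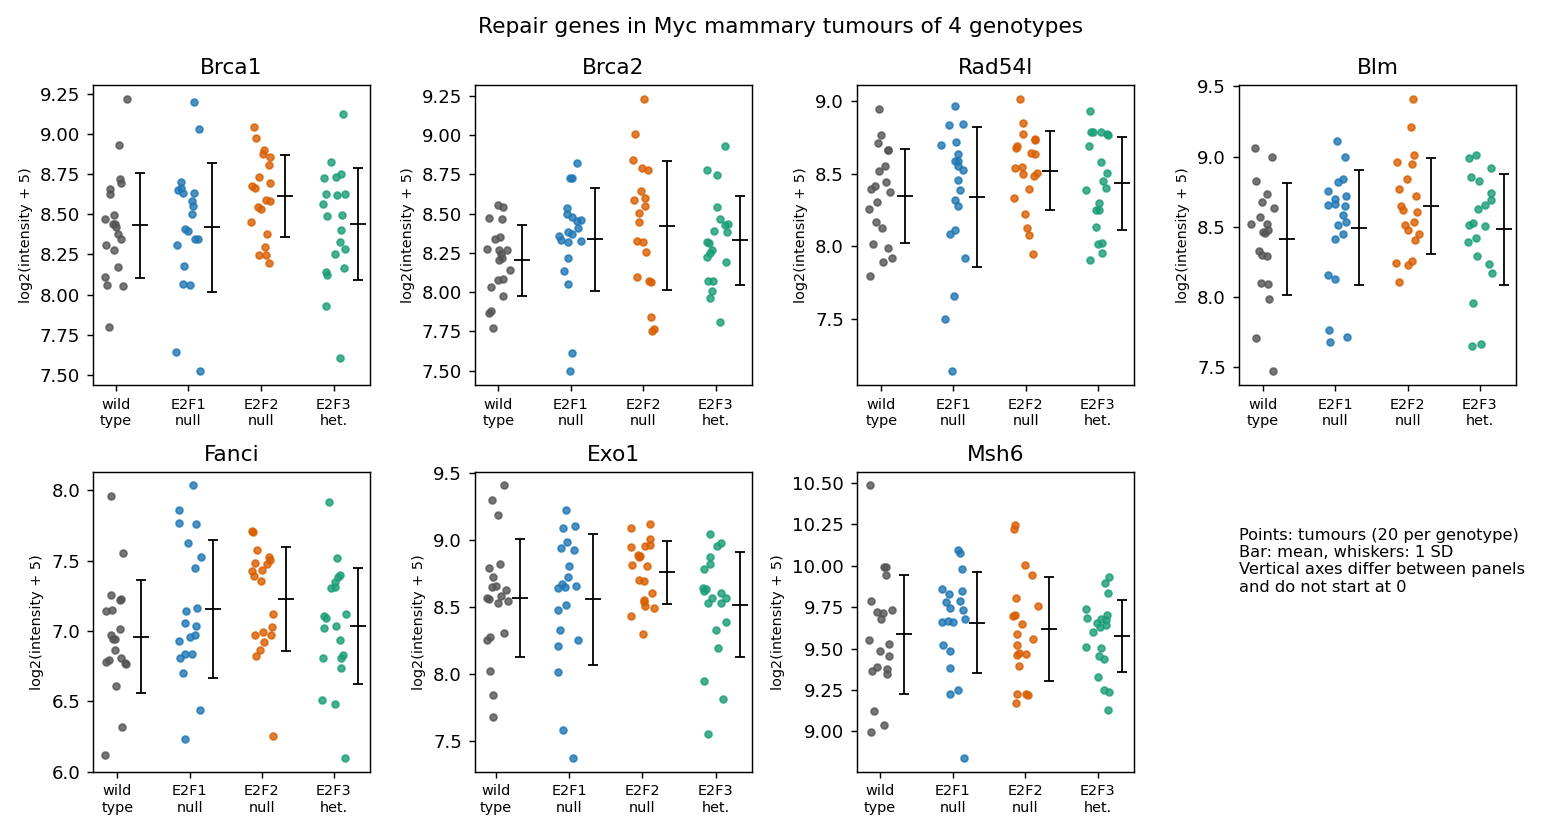
Levels of 7 repair genes as log2(intensity + 5), with 1 point per tumour, 20 tumours per genotype, and the mean with 1 SD beside them. The 4 genotypes overlap for every gene; in E2F2 null tumours the lowest Brca1 intensity was 289 and the lowest Exo1 intensity 310.0, above the lowest of the other 3 groups.

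Among the recombination genes, Brca1 (1424629_at) had intensities from 218 to 591 in wild-type tumours (median 340.0), 179 to 582 in E2F1 null (median 346), 289 to 522 in E2F2 null (median 389.8) and 189.6 to 554 in E2F3 heterozygous tumours (median 356). The groups overlapped almost entirely, and the E2F2 null tumours lacked the low values found in the others. The log2 difference from wild type was 0.00 (SE 0.11) in E2F1 null, 0.21 (SE 0.11) in E2F2 null and 0.03 (SE 0.11) in E2F3 heterozygous tumours, none past the threshold (limma, adjusted p = 1.00, 0.789 and 1.00). A second Brca1 probe set, 1424630_a_at, gave the widest difference of the 12 probe sets in any comparison with wild type, 0.41 (SE 0.17, unadjusted p = 0.0163, adjusted p = 0.789) in E2F2 null tumours. Its intensity lay between 71.8 and 199 there and between 37.8 and 252 in wild-type tumours, so that the wild-type range enclosed the other. The same probe set was lower in E2F1 null than in E2F2 null tumours by a log2 difference of -0.45 (SE 0.17, unadjusted p = 0.00812), with an adjusted p of 0.459.

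Brca2 (1419076_a_at) had intensities from 214 to 372 in wild-type tumours (median 296), 176 to 447 in E2F1 null (median 327), 210.5 to 596 in E2F2 null (median 351) and 219 to 483 in E2F3 heterozygous tumours (median 313). The lower ends lay close together, while the highest tumours were E2F2 null and the wild-type group ended lowest. The SD of the log2 values was 0.41 in E2F2 null and 0.22 in wild-type tumours, a difference in spread that was not tested. The log2 difference from wild type was 0.24 (SE 0.11, unadjusted p = 0.0272, adjusted p = 0.789) in E2F2 null, 0.14 (SE 0.10) in E2F1 null and 0.15 (SE 0.11) in E2F3 heterozygous tumours.

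Rad54l (1450862_at) had intensities from 217 to 488 in wild-type tumours (median 329), 136 to 495 in E2F1 null (median 355), 242 to 514 in E2F2 null (median 368) and 235 to 483 in E2F3 heterozygous tumours (median 339). The ranges overlapped almost entirely, and the lowest tumours were in the E2F1 null group. The difference from wild type was 0.01 (SE 0.12) in E2F1 null, 0.20 (SE 0.12) in E2F2 null and 0.11 (SE 0.12) in E2F3 heterozygous tumours, none past the threshold. In that order, the dimmer Rad54l probe set 1423123_at differed by 0.06 (SE 0.15), 0.18 (SE 0.15) and 0.18 (SE 0.15). For 1423124_x_at the differences were 0.09 (SE 0.17), 0.21 (SE 0.18) and 0.30 (SE 0.18), again none past the threshold. Blm (1448953_at) had intensities from 172 to 529.8 in wild-type (median 349), 200.2 to 548 in E2F1 null (median 387), 271 to 676 in E2F2 null (median 386) and 196 to 511 in E2F3 heterozygous tumours (median 362). Its E2F2 null group was shifted upward at both ends and still shared most of its range with wild type. The log2 differences were 0.09 (SE 0.13), 0.25 (SE 0.13, unadjusted p = 0.0533, adjusted p = 0.789) and 0.10 (SE 0.13) in the same order.

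Fanci (1427953_at), the crosslink repair gene, was dim: 64.5 to 243 in wild-type tumours (median 118), 70.3 to 257 in E2F1 null (median 127), 71.4 to 204 in E2F2 null (median 161) and 63.4 to 236 in E2F3 heterozygous tumours (median 129). The 4 ranges began at the same level, and the E2F2 null group had the highest median but not the highest tumours. It exceeded the level filter on 76 of 80 arrays. Its differences from wild type were 0.31 (SE 0.14, unadjusted p = 0.0277, adjusted p = 0.789) in E2F2 null, 0.22 (SE 0.14) in E2F1 null and 0.11 (SE 0.14) in E2F3 heterozygous tumours.

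Of the mismatch repair genes, Exo1 (1418026_at) had intensities from 199 to 674 in wild-type tumours (median 376), 160.4 to 594 in E2F1 null (median 397), 310.0 to 550.1 in E2F2 null (median 444) and 182 to 523 in E2F3 heterozygous tumours (median 379). The E2F2 null group was the narrowest and lay inside the wild-type range. Its log2 difference from wild type was 0.22 (SE 0.13, unadjusted p = 0.103), and those of E2F1 null and E2F3 heterozygous tumours were 0.01 (SE 0.13) and -0.02 (SE 0.13). The other Exo1 probe set, 1418027_at, differed by 0.25 (SE 0.15) in E2F2 null, 0.01 (SE 0.14) in E2F1 null and -0.12 (SE 0.15) in E2F3 heterozygous tumours. Msh6 (1416915_at) had intensities from 505 to 1427 in wild-type tumours (median 739), 453 to 1089.9 in E2F1 null (median 829.9), 572 to 1208 in E2F2 null (median 756) and 556 to 970.1 in E2F3 heterozygous tumours (median 791). Its groups could not be ordered, and the single highest tumour was wild type. Its differences from wild type were 0.09 (SE 0.10), 0.07 (SE 0.10) and 0.02 (SE 0.10), with 95% intervals of -0.10 to 0.29, -0.13 to 0.27 and -0.18 to 0.22.

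Counted over the 12 probe sets, 0 were called by limma in E2F1 null against wild-type tumours, where 0.0787% of all probe sets were called, and 0 had an unadjusted p below 0.05, against 185 of 15255. In E2F2 null against wild-type tumours 0 were called (0.0393% of all) and 3 had an unadjusted p below 0.05, those of Brca1, Brca2 and Fanci given above, against 947 in all. In E2F3 heterozygous against wild-type tumours 0 were called (0.00656% of all) and 0 had an unadjusted p below 0.05, against 101. Between mutant backgrounds 0 were called in E2F1 null against E2F2 null (0.223% of all), in E2F1 null against E2F3 heterozygous (0.105%) and in E2F2 null against E2F3 heterozygous tumours (0.0656%). The unadjusted p was below 0.05 for 1, 0 and 3 of them, against 1403, 469 and 1165 of all probe sets. The F test over the 4 genotypes called 0 of 12, against 0.216% of all, and 1 had an unadjusted p below 0.05, against 610. The 3 comparisons with wild type share the same 20 wild-type tumours. In E2F1 null tumours 11 of 12 and in E2F3 heterozygous tumours 9 of 12 probe sets lay above wild type. Over all probe sets 52.4% and 51.6% did, and the median differences of the 12 were 0.05 and 0.07.

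Proliferation was followed beside these genes with a mitosis score, the mean of the centred log2 values of 36 mitosis and G2/M genes, none of which is a repair gene described here. Its mean was 0.12 (SD 0.23, n = 20) in E2F2 null tumours, -0.05 (SD 0.38) in wild type, -0.03 (SD 0.37) in E2F1 null and -0.04 (SD 0.28) in E2F3 heterozygous tumours. With this score as a covariate, the median difference of the 12 probe sets in E2F2 null tumours was 0.07, compared with 0.23 without it. Blm then differed from wild type by 0.06, Fanci by 0.11, Brca2 by 0.12, Exo1 by 0.02 and Msh6 by -0.05. At equal score 0 of 12 were called for E2F1 null (0.0987% of all 15197 probe sets), 0 for E2F2 null (0.0724% of all) and 0 for E2F3 heterozygous tumours (0.0132% of all). The unadjusted limma p was below 0.05 for 1, 0 and 0 of them, against 241, 641 and 234 in all. The exception was Fanci in E2F1 null tumours, at 0.18 (SE 0.09, unadjusted p = 0.0419, adjusted p = 1.00).

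**Figure D2:**
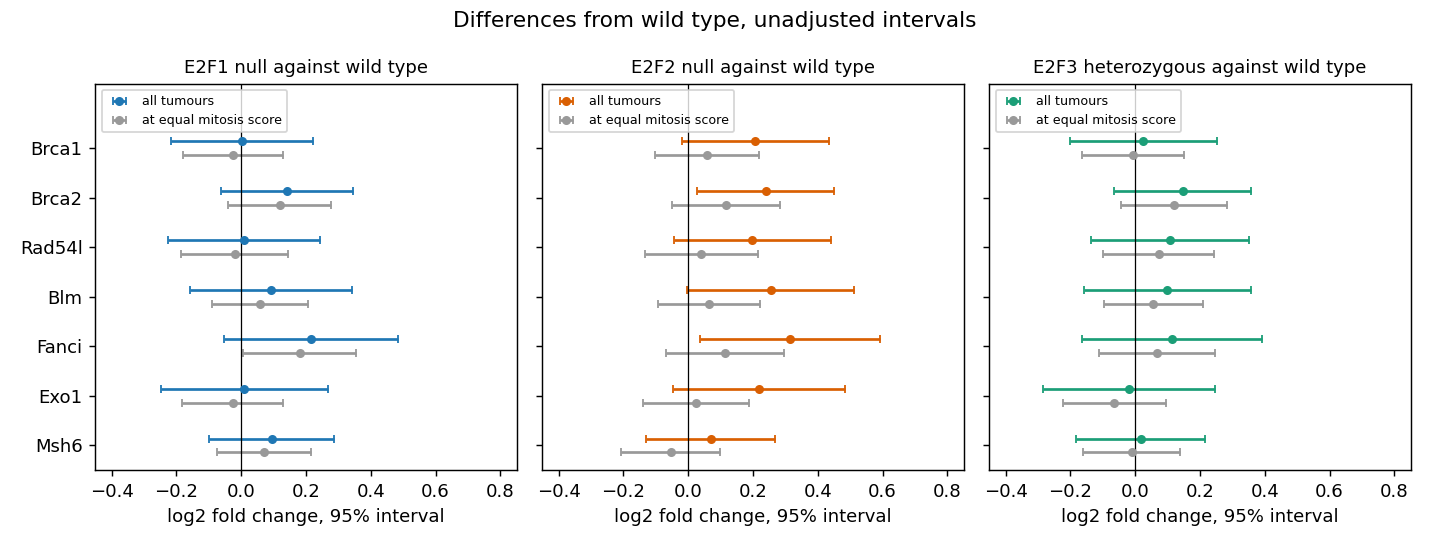
Log2 fold change from wild type for 7 repair genes with unadjusted 95% intervals, for all tumours (coloured) and with the mitosis score as a covariate (grey). In E2F2 null tumours Brca2 lies at 0.24 and Fanci at 0.31 before, and at 0.12 and 0.11 after the covariate was added; no point passed the adjusted threshold.

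Across tumours, all 7 genes rose with the mitosis score. In a limma fit with genotype as a term, 12 of 12 probe sets were called with a positive slope, where 23.5% of the 15197 probe sets tested were called in that direction. The median slope was 0.85 log2 units per log2 unit of score, against 0.00 over all probe sets. The score ran from -0.93 to 0.52 and came from the same arrays as the genes.

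The steepest slopes were those of Exo1 at 1.00 (SE 0.09, adjusted p = 2.04e-16), Fanci at 1.00 (SE 0.10, adjusted p = 2.55e-14) and Blm at 0.98 (SE 0.08, adjusted p = 9.28e-17), so that these genes changed by about 1 log2 unit per unit of the score. Rad54l had a slope of 0.81 (SE 0.09, adjusted p = 2.03e-11) and Brca1 of 0.76 (SE 0.08, adjusted p = 1.12e-11). The shallowest were Brca2 at 0.62 (SE 0.09, adjusted p = 1.52e-08) and Msh6 at 0.62 (SE 0.08, adjusted p = 1.85e-09). Among further probe sets the lowest slope was that of Rad54l 1423123_at, 0.50 (SE 0.15, adjusted p = 0.00356), and the highest that of Brca1 1424630_a_at, 0.95 (SE 0.14, adjusted p = 5.30e-08).

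**Figure D3:**
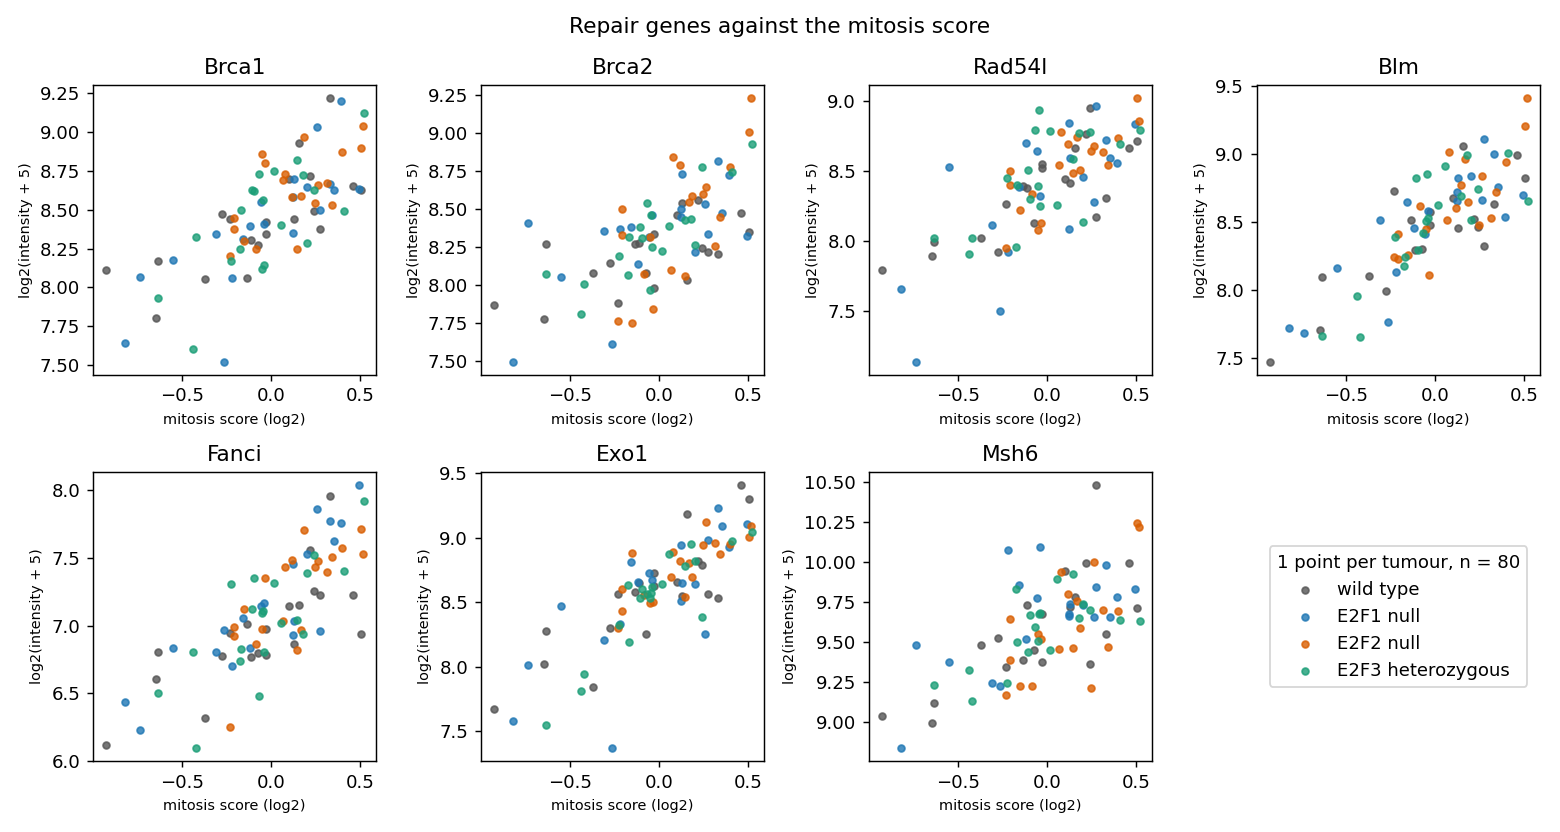
Levels of 7 repair genes, as log2(intensity + 5), against the mitosis score of the same tumour, with 1 point per tumour coloured by genotype (n = 80). Each gene rises with the score, with slopes from 0.62 for Msh6 to 1.00 for Exo1, and the genotypes are intermixed; the highest Msh6 point is a wild-type tumour at 1427.

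The slopes were also estimated within each genotype. They ran from 0.36 (Brca2) to 0.98 (Exo1) in wild type, 0.52 (Msh6) to 1.14 (Fanci) in E2F1 null, 0.67 (Brca1) to 1.17 (Brca2) in E2F2 null and 0.50 (Msh6) to 1.22 (Exo1) in E2F3 heterozygous tumours. Brca2 was the gene whose slope varied most, with 0.36 (SE 0.14) in wild type, 0.56 (SE 0.14) in E2F1 null, 1.17 (SE 0.23) in E2F2 null and 0.83 (SE 0.19) in E2F3 heterozygous tumours. The test of that difference gave F = 3.53, with an unadjusted p of 0.0187 and an adjusted p of 1.00 in limma. In that test 0 of 12 probe sets were called, as were 0% of all 15197, of which 479 had an unadjusted p below 0.05; among the 12 only Brca2 did.

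Over the means of the 53 label numbers, the correlation with the mitosis score was r = 0.84 for Blm, 0.83 for Exo1, 0.82 for Fanci, 0.79 for Rad54l, 0.77 for Brca1, 0.69 for Brca2 and 0.68 for Msh6 (Spearman's rho 0.58 to 0.81). Each of these had a permutation p of 1e-05, the smallest that 100000 resamples can give, and 5e-05 after adjustment over the 70 relations computed for the 7 genes. Without the 2 numbers farthest from the median score, r was 0.58 to 0.79. Within genotypes r was 0.63 to 0.88 in wild type, 0.68 to 0.89 in E2F1 null, 0.45 (Brca1) to 0.88 in E2F2 null and 0.48 (Msh6) to 0.91 in E2F3 heterozygous tumours. With a score of 32 DNA replication and G1/S genes, r was 0.89 for Exo1 and 0.83 for Msh6, and the lowest was 0.74 for Brca1 (permutation p = 1e-05 and adjusted p = 5e-05 for each of the 7, rho 0.75 to 0.82). Msh6 was thus closer to the replication score than to the mitosis score, although both scores were themselves correlated at r = 0.92, and that gap was not tested.

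Over all label numbers the stromal scores were negatively correlated with the repair genes. The mitosis score had r = -0.61 with the score of 19 fibroblast and collagen genes and r = -0.57 with that of 15 macrophage and myeloid genes over the 53 numbers. The 7 repair genes had r from -0.57 (Brca1) to -0.35 (Rad54l) with the first and from -0.56 (Brca1) to -0.31 (Msh6) with the second (adjusted permutation p of at most 0.0196 and 0.0373), while rho ran from -0.39 to -0.15 and from -0.42 to -0.04 (adjusted p up to 0.365 and 0.783). Without the 2 farthest numbers these became -0.44 to -0.14 and -0.41 to -0.03, so part of the relation rested on those tumours. The sign was not the same in every genotype. Within E2F2 null tumours, over 11 numbers, r with the macrophage score was positive for all 7 genes, from 0.07 (Brca1) to 0.67 (Rad54l), and r with the fibroblast score was 0.47 for Rad54l, 0.35 for Blm, 0.32 for Brca2, 0.25 for Exo1, -0.04 for Msh6, -0.11 for Fanci and -0.25 for Brca1. In the other 3 genotypes both were negative for every gene, and the difference between genotypes was not tested. The summed intensity of the fibroblast genes ran from 10627 to 147124 in wild type, 7774 to 189588 in E2F1 null, 9946 to 59056 in E2F2 null and 13366 to 125999 in E2F3 heterozygous tumours, and the E2F2 null group lacked the highest values. That of the macrophage genes ran from 7048 to 64608 in wild type and from 10817 to 26462 in E2F2 null tumours. Of 16 T, NK and B cell markers 1 passed the filter. With both stromal scores added as terms, an alternative chosen after seeing the data, the slopes of the 7 brightest probe sets on the mitosis score ran from 0.64 (Msh6) to 1.06 (Exo1), with a limma adjusted p of at most 1.16e-06 (Brca2). In whole-tumour RNA, fewer tumour cells and less transcript per tumour cell cannot be told apart.

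With the luminal marker score, r ranged from -0.39 for Fanci (rho -0.29, permutation p = 0.00415, adjusted p = 0.00937, and -0.29 without the 2 farthest numbers) to -0.03 for Brca2 (rho -0.02, p = 0.853). The p53 target score, over 18 genes, was negatively related to Rad54l at r = -0.45 (rho -0.43, permutation p = 0.00064, adjusted p = 0.00195, and -0.48 without the 2 farthest) and to Brca1 at r = -0.37 (rho -0.40, permutation p = 0.00669, adjusted p = 0.0135). Fanci had r = -0.36 (rho -0.36, adjusted permutation p = 0.0145), Exo1 -0.35 (rho -0.33, adjusted p = 0.0160) and Blm -0.30 (rho -0.26, adjusted p = 0.0454, and 0.130 for rho). Brca2 had r = -0.16 (rho -0.06, permutation p = 0.249) and Msh6 0.03 (rho 0.06, permutation p = 0.843), and the mitosis score had -0.39. Within E2F2 null tumours, over 11 numbers, r with the p53 target score was 0.28 for Rad54l, 0.26 for Exo1 and 0.23 for Blm. It was 0.22 for Brca2 and 0.12 for Fanci, but -0.04 for Msh6 and -0.43 for Brca1. In the other genotypes r was negative for every gene except Msh6, at 0.15 in E2F1 null and 0.27 in E2F3 heterozygous tumours. The SD of the score was 0.26 in E2F2 null and 0.48 to 0.53 in the other groups. The difference between genotypes was not tested.

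The transcripts of E2f1, E2f3 and Myc, each by its brightest probe set, followed the repair genes only weakly. Mutant and wild-type tumours were pooled for this, and E2f2 was not correlated here. For E2f1, r ran from 0.03 (Fanci) to 0.30 (Msh6) and for E2f3 from 0.09 (Brca2) to 0.33 (Fanci), with lowest permutation p-values of 0.0301 and 0.0156 (adjusted 0.0454 and 0.026) and rho of 0.05 to 0.28 and 0.11 to 0.31. For Myc, r ran from 0.33 (Msh6) to 0.43 (Brca1) with adjusted p-values of 0.00339 to 0.0258, but rho was only 0.04 to 0.27. Without the 2 farthest numbers, r with Myc fell to 0.05 to 0.25, so that relation rested on those tumours.

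The repair genes also varied together. Over the 80 tumours the 21 gene pairs had a median r of 0.62, from 0.46 for Rad54l with Msh6 to 0.82 for Blm with Exo1. Rad54l with Blm reached 0.79 and Rad54l with Exo1 0.77, so Rad54l, Blm and Exo1 formed the tightest trio. Of the 21 pairs 90.5% exceeded 0.5, while 3.53% of all pairs of tested genes did and their median was 0.01. These values describe tumours that share arrays, scaling and proliferation, and carry no test.

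Probe sets of the same gene could be compared as separate measurements of 1 transcript. The 3 Brca1 probe sets past the filter correlated at 0.67 to 0.78, the 3 of Rad54l at 0.62 to 0.81 and the 2 of Exo1 at 0.74. The Brca1 probe set that failed the filter had r between -0.04 and 0.09 with the other 3, and that of Fanci had 0.38 with its partner. Tumours that share a label number resembled each other most in Exo1 1418027_at and Msh6, with a within-number correlation of 0.57 and 0.50, and in Fanci, with 0.48. Rad54l 1450862_at had -0.01, and the consensus over all probe sets was 0.17.

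The genes most like each repair gene, by Pearson r over the 80 tumours among 8769 tested genes, were named by that measure alone. Brca1 was followed by Top2a (0.84), the topoisomerase of mitotic chromosomes, Cdca5 (0.76), which protects sister chromatid cohesion, and Aurkb (0.76), a mitotic kinase; Top2a and Aurkb lie on chromosome 11 as Brca1 does. Brca2 was followed by Nup133 (0.80), a nuclear pore subunit, Timeless (0.78), a replication fork protein, and Fignl1 (0.77). For Rad54l the nearest were Zwilch (0.89), a kinetochore protein, Nasp (0.84), a histone chaperone, and Pole (0.84), the leading-strand polymerase.

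Blm was most like Dbf4 (0.87), the activator of the kinase that fires replication origins, Cdca5 (0.86) and Nasp (0.86). Fanci was most like Aurkb (0.79), Rfc5 (0.78), a clamp loader subunit, and Ttk (0.78), a spindle checkpoint kinase. Exo1 was most like Orc1 (0.87), a subunit of the origin recognition complex, Hells (0.84), a chromatin remodeller, and Cdca5 (0.83). Msh6 was most like Hells (0.81), Mcm3 (0.81), a subunit of the replicative helicase, and Dut (0.81), which keeps uracil out of DNA. For the mean of the 7 standardised genes the 10 nearest were Hells (0.91), Bub1 (0.89), Cdca5 (0.88), Kif11 (0.88), Mcm10 (0.87), Top2a (0.87), Cdt1 (0.86), Mcm5 (0.86), Topbp1 (0.86) and Mcm3 (0.85).

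Individual tumours set the ends of this common range. By the mean of the 7 standardised levels, the lowest tumours were E2F1 null replicate 6 (-2.26), E2F1 null replicate 13 (-2.01) and wild type replicate 18 (-1.91). Brca2 and Msh6 were lowest of all 80 tumours in the first, Brca1 and Exo1 in the second, and Blm in wild type replicate 18. The first and the last also had low mitosis scores, -0.82 and -0.93, and high fibroblast scores, 3.06 and 1.94, while E2F1 null replicate 13 had a mitosis score of -0.27 and a fibroblast score of -0.28. The highest tumours were E2F2 null replicate 4 (1.76) and replicate 19 (1.63), with mitosis scores of 0.51 and 0.50, and the first of them held the highest Brca2 and Blm levels.

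The repair genes were also set against the remaining genes of their own chromosome. A chromosome score was taken as the median centred log2 value of that chromosome's tested genes, without proliferation and repair genes. Among the scores of 20 chromosomes, that of chromosome 11 was the one most correlated with Brca1, and that of chromosome 17 the one most correlated with Msh6, both before and after the mitosis score was regressed out. Rad54l ranked its own chromosome 4 first (r = 0.22) before and at 3 after. Brca2 ranked chromosome 5 at 10 both times. Exo1 ranked chromosome 1 at 17 before and at 1 after, and on chromosome 7 Blm went from 18 to 4 and Fanci from 20 to 15. These ranks compare r over all tumours, including the few with outlying scores described next, and are a description.

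For chromosome 11, 4 tumours stood apart with scores above 0.2, while the other 76 reached 0.17 at most. They were E2F1 null replicate 4 (score 0.37, Brca1 intensity 582), wild type replicate 3 (0.33, intensity 591), E2F2 null replicate 1 (0.32, intensity 442) and E2F1 null replicate 20 (0.26, intensity 518). Counted from the highest, their Brca1 levels ranked 2, 1, 12 and 5 of 80. Their mitosis scores were 0.39, 0.33, -0.03 and 0.26, and with that score regressed out Brca1 ranked 3, 1, 4 and 5. In the other 76 tumours, over 49 label numbers, r was 0.30 (permutation p = 0.0367) and rho was 0.10 (p = 0.480), and the second of these did not pass 0.05. Over these 76 tumours, without averaging by number, r was 0.24, and 0.49 with the mitosis score regressed out. Neither value was tested.

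For chromosome 17, wild type replicate 10 (score 0.38, Msh6 intensity 1427) and E2F1 null replicate 10 (0.33, intensity 1076) stood apart from the other 78 tumours, whose scores ended at 0.10. Msh6 was highest of 80 tumours in the first and ranked 5 in the second. Their mitosis scores were 0.27 and -0.22, and with that score regressed out Msh6 ranked 1 and 2. In the other 78, over 52 label numbers, r was 0.30 (permutation p = 0.0310, rho 0.21, p = 0.134) and 0.08 without the 2 farthest numbers, so it rested on those. Over these 78 tumours, without averaging by number, r was 0.23, and 0.41 with the mitosis score regressed out, both untested. No pooled r is given for Brca1 or Msh6 because the tumours fall into separate clusters, although the ranks above were taken from it. Copy number was not analysed here.

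**Figure D4:**
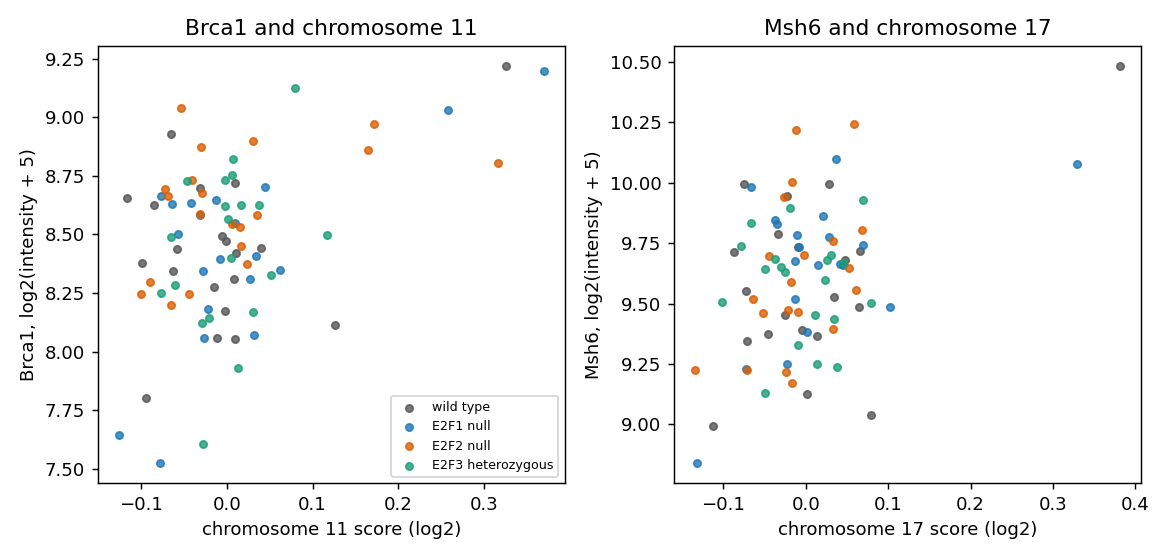
Brca1 against the chromosome 11 score and Msh6 against the chromosome 17 score, both in log2, with 1 point per tumour (n = 80) coloured by genotype. The 4 tumours with chromosome 11 scores above 0.2 have Brca1 intensities of 442 to 591, and the tumour with the highest chromosome 17 score, 0.38, has the highest Msh6 intensity, 1427.

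Other repair genes were taken from lists of the same pathways. In the 3 comparisons with wild type 0 members of any of these lists were called by limma. In E2F2 null tumours the median log2 difference was 0.11 over 21 other recombination genes (15 higher), 0.10 over 10 other Fanconi genes (9 higher), 0.13 over 13 other mismatch repair genes (13 higher) and 0.13 over 13 damage checkpoint genes (13 higher). It was 0.00 over 8 end joining genes (4 higher) and 0.02 over 21 excision repair genes (12 higher), against 0.00 over all probe sets. Of all probe sets 49.2% were higher. The lowest p-values in that contrast were those of Mutyh, a base excision glycosylase (0.34, SE 0.13, unadjusted p = 0.0123), Timeless (0.25, SE 0.10, p = 0.0141), Topbp1, which activates the ATR kinase (0.22, SE 0.09, p = 0.0153), and Rfc3, a clamp loader subunit (0.26, SE 0.12, p = 0.0309), all with a limma adjusted p of 0.789. Eme1, a nuclease subunit, differed by 0.29 (SE 0.14) and Usp1, the deubiquitinase of the FANCI-FANCD2 clamp, by 0.22 (SE 0.11), neither past the threshold.

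In E2F1 null tumours the median difference lay between 0.02 (end joining) and 0.09 (mismatch repair), and the lowest p-values were those of Fance (0.21, SE 0.09, unadjusted p = 0.0205), Timeless (0.20, SE 0.10, p = 0.0424) and Wrn, a helicase related to Blm (0.21, SE 0.10, p = 0.0442), all with a limma adjusted p of 1.00. In E2F3 heterozygous tumours the list medians lay between -0.06 and 0.01, and the lowest p-values among these repair lists were those of Mus81, the nuclease partner of Eme1 (-0.19, SE 0.11, p = 0.0827), Timeless (0.17, SE 0.10, p = 0.0914) and Xpa, a nucleotide excision factor (-0.17, SE 0.10, p = 0.104).

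The slopes of these genes on the mitosis score were counted in the same way. Called positive slopes were found for 15 of 21 other recombination genes, 7 of 10 Fanconi genes, 12 of 13 mismatch repair genes and 12 of 13 checkpoint genes, 3 of 8 end joining genes and 12 of 21 excision repair genes. Ercc4, a nucleotide excision nuclease, was the single gene of these lists with a called negative slope, -0.31 (SE 0.10, limma adjusted p = 0.011). The background was the 23.5% given above, and the difference between lists was not tested. Rpa2, a subunit of the single-strand binding protein RPA, had a slope of 0.91 (SE 0.07), Rfc5 of 1.07 (SE 0.06), Usp1 of 0.84 (SE 0.06) and Chek1, the checkpoint kinase, of 0.92 (SE 0.08). Mus81 had -0.04 (SE 0.12), Rmi1, a partner of Blm, 0.03 (SE 0.09), Mlh3 -0.08 (SE 0.09), Fancg 0.01 (SE 0.10), and Prkdc, the end joining kinase, 0.10 (SE 0.10), none past the threshold. The genes of this paragraph were picked with their slopes in view. Palb2 and Lig4, among others on the lists, were not analysed here.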

How the data were processed

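Expression was measured in 80 mammary tumours, 1 single-colour array each. Per the submitters' processing notes the authors made the deposited intensity values with MAS5 in Affymetrix Expression Console, with no version stated there. The table holds 22690 probe sets, of which 64 Affymetrix controls were left out. Gene names came from the platform annotation; 691 probe sets with several symbols and 1555 with none were not named. Intensities were converted to log2(value + 5), and probe sets above 74.6, the 40th percentile, on at least 10 arrays were tested (15255 probe sets).

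In R 4.3.3, limma 3.58.1 with statmod 1.5.0 fitted models over all 80 arrays, using an intensity trend, robust moderation, two-sided tests and the label number as a random block (consensus correlation 0.166). The Benjamini-Hochberg adjustment ran over all probe sets tested, with calls at 0.05. Slopes on the mitosis score were fitted with genotype as a term and without the probe sets of that list. A tumour's list score was the mean of log2 values centred per gene. Correlations across label-number means used permutation tests with 100000 resamples, two-sided, in Python 3.11.15 (scipy 1.17.1, pandas 2.3.3, numpy 2.4.6; plots with matplotlib 3.10.9). The fit was tested on simulated data. Pseudocount, filter, block, normalization, probe set choice, moderation, score and 1 doubted array were varied.

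Genes were named by rule: every probe set of the repair genes; of each other repair list, the genes called and the 2 with the smallest p per contrast; and the genes with the highest correlation. Exceptions were made for length: from the other repair lists only some of those 2 are named for the comparisons with wild type, none for those between mutant backgrounds, and only some genes with a called slope. Those named, and the tumours singled out, were picked with values in view. The genes, lists and tests were chosen with earlier results of these data known. Replicate numbers were given in the order of the samples and pair nothing.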

Additional observations from a re-analysis of the deposited data

How the results depend on the processing

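The count of repair gene probe sets called was 0 in every genotype comparison, and 12 for the slope on the mitosis score, under each alternative run for them. Among the alternatives for the slope was the replication score in place of the mitosis score. For single genes in E2F1 null tumours 52 of 56 values kept their direction; with no block Exo1 became -0.0081, Brca1 -0.0104 and Rad54l -0.0049, and with no filter Brca1 became -0.0012, against 0.00 to 0.01 as reported. In E2F3 heterozygous tumours 54 of 56 kept it; Msh6 became -0.0100 with no block, and Exo1 became 0.0654 with 1 mean per label number. All 56 values in E2F2 null tumours stayed positive, from 0.03 to 0.42, with adjusted p from 0.645 to 0.946. The 42 alternative slopes, those on the replication score included, lay between 0.58 and 1.20. The cause of the changes of sign was not tested. Over all probe sets, calls fell from 12 to 4 in E2F1 null, from 6 to 2 in E2F2 null and from 1 to 0 in E2F3 heterozygous tumours with 1 probe set per gene, and from 1 to 0 with 1 mean per label number in the last. No paired analysis was possible because replicate numbers follow sample order and no label number is shared between genotypes. Among the brightest probe sets, dimness limits Fanci most, and the MAS5 scaling hides changes in total mRNA. Further probe sets were dimmer, with Rad54l 1423124_x_at above the level filter on 24 of 80 arrays, Rad54l 1423123_at on 32 and Brca1 1424630_a_at on 56.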

Other observations

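Genes at the opposite end of the tumour range from the repair genes were looked up after their values were seen. Over the 80 tumours the 5 lowest correlations with the mean of the 7 standardised repair genes were those of Dnajb9 (-0.73), a chaperone of the endoplasmic reticulum, Creb3 (-0.73), a membrane-bound transcription factor, Stx5a (-0.70), a syntaxin of the early secretory pathway, Kdelr3 (-0.69), a receptor that returns proteins to the endoplasmic reticulum, and Fam114a1 (-0.68). These are descriptions across tumours that share arrays and scaling, and no test was made.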
